A study of Mus musculus with 8 samples.

Results

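The genes described here are the neighbors of Ehmt2 in the class III region of the mouse major histocompatibility complex (MHC). They are the genes on chromosome 17 of GRCm38 that start between positions 34450000 and 35200000 in GENCODE M21, with Ehmt2, Hspa1a, Hspa1b, C2, Cfb, C4a, C4b and Tnf left out. The rule used position and these named exclusions, no measured value, though members were chosen with earlier results of these data known. It left 78 of the 86 genes of the interval, out of 47434 genes in the deposited table. There were 49 protein-coding genes, 12 pseudogenes, 10 genes of small RNAs and 7 other noncoding genes. Of the 78 genes, 40 passed the filter on low counts and were tested, 32 of them protein-coding.

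RNA with poly-A tails was measured in 8 libraries of Hepa 1-6, a cell line grown from a mouse hepatoma. The G9a_KO group held 4 libraries of cells labelled as a knockout of G9a, the histone methyltransferase that Ehmt2 encodes, and the WT group held 4 libraries of the wild-type line. No treatment is named for either group. The labels do not say how the knockout was made, whether it is 1 clone, or whether libraries came from separate cultures, and p-values therefore cover only the variation among the libraries at hand, which may be technical. The comparison asks what loss of G9a does to RNA levels. Counts assigned per library lay between 58256100 and 75025236. Levels are counts scaled to a library total of 1000000 (CPM) after TMM normalization, and means carry the SD over the 4 libraries of a group. A fold change is on the log2 scale, G9a_KO over WT, with its standard error (SE), and a gene rose or fell where its adjusted p from the quasi-likelihood test of edgeR was under 0.05.

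Ehmt2 itself had 118 ± 1.55 CPM in G9a_KO libraries and 314 ± 21.3 CPM in WT libraries, without overlap, so the RNA was lower but still present in the knockout. The markers of hepatocytes were at or near 0 in every library. Alb, Ttr, Hnf4a, Cyp3a11 and Serpina1a had no count, and none of the 6 measured hepatocyte markers passed the filter, with summed levels of 0 to 0.168 CPM in G9a_KO libraries and 0 to 0.294 CPM in WT libraries. Markers of fibroblasts and stellate cells summed to 430 to 462 CPM in G9a_KO libraries and 108 to 117 CPM in WT libraries. Most of that sum was the collagen gene Col3a1, at 429 ± 12.8 CPM in G9a_KO libraries and 107 ± 4.83 CPM in WT libraries. Of the 5 tested, Col3a1, Col1a1, Col1a2 and Des were higher in the knockout and Pdgfrb did not pass, while Dcn and Lum were at or near 0. Those of fetal liver and hepatoma summed to 118 to 145 CPM in G9a_KO libraries and 5.17 to 6.57 CPM in WT libraries, nearly all of it alpha-fetoprotein RNA. Afp, its gene and the only one of the list tested, had 133 ± 11.9 CPM in G9a_KO libraries and 5.77 ± 0.567 CPM in WT libraries, while H19 and Igf2 were near 0 and Gpc3 and Dlk1 at 0. The part of these shifts in the values below was not tested. Markers of macrophages (6.94 to 8.26 CPM in G9a_KO libraries, 5.04 to 9.11 CPM in WT libraries) and of T and B cells (1.52 to 2.42 CPM in G9a_KO libraries, 1.51 to 2.15 CPM in WT libraries) were low, with Adgre1, Clec4f, Itgam, Cd3e, Cd3d and Ms4a1 at 0 throughout.

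The MHC is read in classes. Classes I and II hold the genes that present peptides to T cells, while class III, which lies between them, is a dense stretch of genes with unrelated tasks: complement, heat shock and cytokine genes stand among housekeeping genes of RNA decay, protein synthesis, chaperoning and lipid metabolism. Neighbors here are often close together and some share exons or face each other across a shared promoter stretch. G9a methylates histone H3, and its marks are known for repressing genes in euchromatin.

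Most of the class III neighbors differed little between the knockout and the wild type. Of the 40 tested genes, 12 (30.0%) passed the test, against a background of 47.2% of all 15840 genes tested. Gpsm3, Ly6g5b, Stk19, Neu1 and Agpat1 rose (5 of 40, 12.5%, where 23.6% of all genes rose). Notch4, Hspa1l, Vars, Skiv2l, D17H6S53E, 1110038B12Rik and Pbx2 fell (7 of 40, 17.5%, where 23.6% of all genes fell). At an unadjusted p under 0.05 there were 17 genes, against 52.9% of all genes. The 4 libraries of each group did not overlap for 10 of the 40 genes, against 43.9% of all genes. The median log2 fold change was -0.02, with quartiles of -0.17 and 0.19, beside a median of 0.00 over all genes. Its median size was 0.17 for the class III genes and 0.29 for all genes. A call with a change of at least 0.5 either way was reached by 4 genes, Gpsm3, Notch4, Hspa1l and Ly6g5b, against 21.8% of all genes. The genes left out of the set are not in these counts. Among them Ehmt2, Hspa1a and Hspa1b fell and C4b rose, each by more than any called gene of the set. None of these counts is a test of the group against other genes.

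Weakly expressed genes were a part of that picture. A mean of at least 5 CPM over all libraries was reached by 26 of the tested genes, 4 lay between 1 and 5 CPM, and 10 were under 1 CPM. Among the 26, 4 rose and 6 fell (38.5%), against 58.3% of the 9977 genes at that level, of which 25.3% rose and 32.9% fell. The median log2 fold change of the 26 was -0.05, as against -0.05 for all genes at that level, and its median size was 0.14 against 0.22. For 22 of the 26 the change was within 0.3 either way. Their groups did not overlap for 8 genes (30.8%, against 52.8%). A call with a change of at least 0.5 was reached by 2 (7.69%, against 18.5%), and an unadjusted p under 0.05 by 14, against 63.6%.

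The number of genes called depended on single libraries and on scaling. Without WT replicate 1, 10 class III genes were higher and 5 lower in the knockout; without WT replicate 2, 3 were higher and 8 lower; without WT replicate 4, 5 were higher and 4 lower. Scaling by library size alone, or by the upper quartile, gave 9 higher and 4 lower in either case, and shifted the median of all genes by 0.08 and 0.06. The calls for Gpsm3, Notch4, Ly6g5b, Hspa1l, Vars, Skiv2l and Agpat1 held in every one of these settings.

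**Figure D1:**
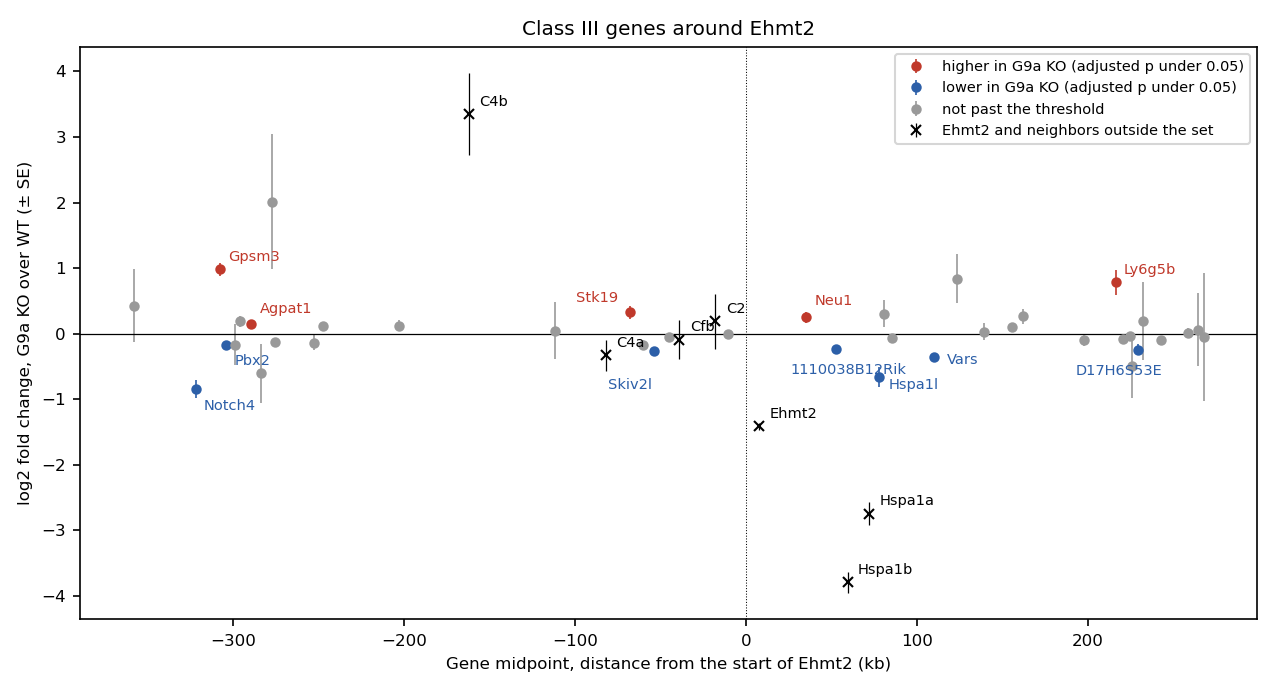
Log2 fold change (G9a_KO over WT, vertical axis, bars are SE) of the 40 tested class III genes against the distance of each gene's midpoint from the start of Ehmt2 in kb. Red points rose, blue points fell and grey points did not pass an adjusted p of 0.05 (edgeR); crosses are Ehmt2 and the neighbors left out of the set. The largest called changes of the set, in Gpsm3 (0.98) and Notch4 (-0.85), lie side by side about 310 kb from Ehmt2. The grey point at 2.02 is Gm20460, which stays under 1 CPM.

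The gene that begins 413 bases beyond the 3′ end of Ehmt2, Slc44a4, encodes a transporter of the choline transporter-like family and was nearly silent. It had 4 counts in 1 G9a_KO library and 0 in all others, where a count of 0 allows up to 3 counts, or 0.039 to 0.0504 CPM. On the other side, 1601 bases before Ehmt2 and on the same strand, lies Zbtb12 (ENSMUSG00000049823, chromosome 17, 34879483 to 34896867), which encodes a zinc finger protein of the BTB family. Zbtb12 had 26.2, 27.6, 28.7 and 26.3 CPM in G9a_KO libraries, against 24.6, 27.2, 30.0 and 27.1 CPM in WT libraries. The G9a_KO range lay inside the WT range, and the log2 fold change was -0.00 ± 0.07 (SE; adjusted p = 0.969), while Ehmt2 fell by 1.41 ± 0.05. Hspa1a and Hspa1b, which are not in the set, fell by 2.74 ± 0.17 and 3.79 ± 0.16, and reads of these near-identical copies may be shared.

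Called genes lay both near Ehmt2 and far from it. Within 100 kb, 2 of 10 genes with at least 5 CPM rose and 4 fell (60.0% called), near the 58.3% of all genes at that level. Between 100 and 200 kb none of 4 passed the test, and beyond 200 kb 2 of 12 rose and 2 fell (33.3%). Across the 26 genes, Spearman's rho between distance and the size of the change was -0.02, and with the signed change 0.21, a description only, because neighbors share promoter stretches and libraries. Of the genes on the centromeric side of Ehmt2, 3 of 19 tested rose and 3 fell (31.6%), and on the telomeric side 2 of 21 rose and 4 fell (28.6%), beside 47.2% of all genes tested.

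**Figure D2:**
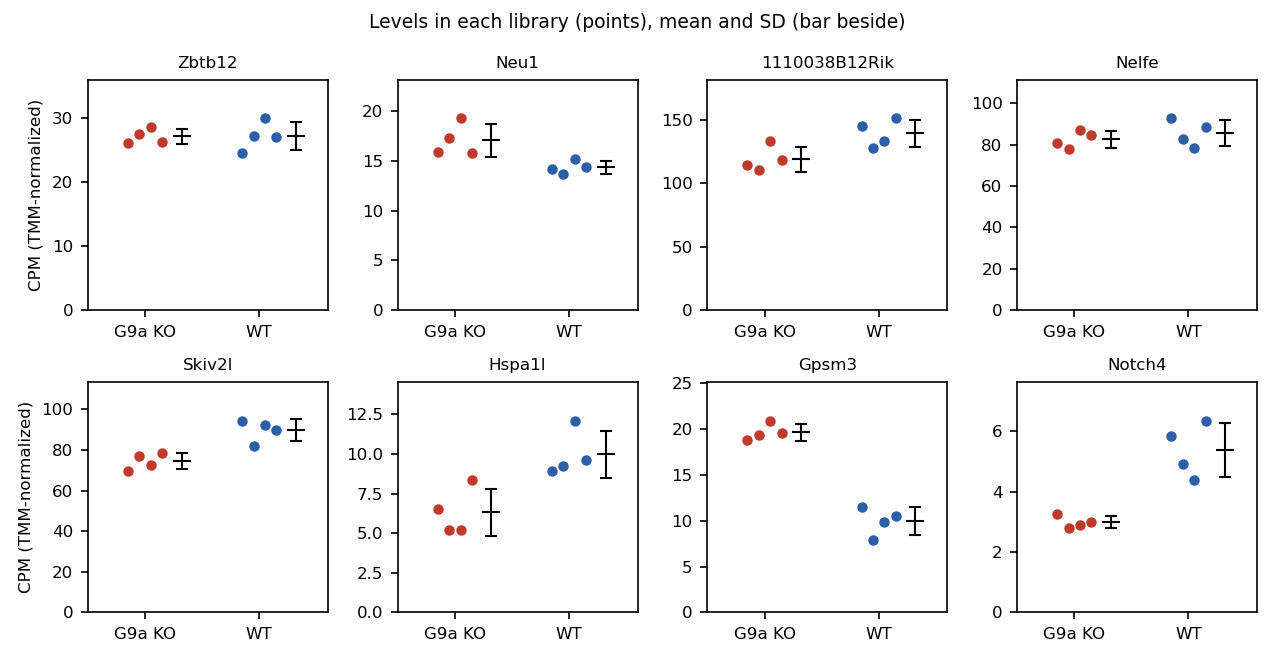
TMM-scaled CPM of 8 class III genes in each of the 4 G9a_KO libraries (red, left) and the 4 WT libraries (blue, right); the black bar beside each group is the mean with its SD, and every vertical axis starts at 0. Gpsm3 and, narrowly, Neu1 separate the groups upward and Skiv2l, Hspa1l and Notch4 downward, while Zbtb12, Nelfe and 1110038B12Rik overlap.

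Among the 6 genes of transcription and DNA, all tested, Stk19 rose and Pbx2 fell (33.3% called, against 47.2% of all genes tested). The median log2 fold change of the 6 was 0.01. Nelfe (ENSMUSG00000024369, 34850391 to 34856372) encodes the RNA-binding subunit of NELF, which holds RNA polymerase II in its pause near the promoter. It had 80.7, 77.9, 87.2 and 84.6 CPM in G9a_KO libraries, against 92.7, 82.6, 78.3 and 88.3 CPM in WT libraries. The groups overlapped, and the log2 fold change was -0.05 ± 0.06 (adjusted p = 0.535). Atf6b, a transcription factor that endoplasmic reticulum stress releases from the membrane, averaged 190 ± 10.2 CPM in G9a_KO libraries and 175 ± 15.6 CPM in WT libraries (0.11 ± 0.06, adjusted p = 0.157). Msh5, which works in meiotic recombination, had 3.86 ± 0.287 CPM in G9a_KO libraries and 3.77 ± 0.455 CPM in WT libraries.

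Stk19, named as a kinase and known for a role in transcription-coupled DNA repair, averaged 28.4 ± 2.01 CPM in G9a_KO libraries and 22.7 ± 3.79 CPM in WT libraries (0.33 ± 0.10, adjusted p = 0.0176). The groups overlapped only through WT replicate 1, at 28.0 CPM, since the other WT libraries lay between 19.4 and 22.7 CPM and the lowest G9a_KO library at 26.9 CPM. The call was lost without G9a_KO replicate 4 (adjusted p = 0.0623), WT replicate 2 (0.0503) or WT replicate 4 (0.0587). Pbx2, a homeodomain partner of HOX proteins, averaged 50.7 ± 2.18 CPM in G9a_KO libraries and 56.9 ± 4.02 CPM in WT libraries (-0.17 ± 0.06, adjusted p = 0.0339). This was the least secure call: leaving out G9a_KO replicate 1, 2 or 3 or WT replicate 1, 3 or 4 ended it (adjusted p between 0.0653 and 0.101), as did scaling by library size (0.273) or by the upper quartile (0.16) and filters at 1 read (0.0693) or 5 CPM (0.0818). Atf6b gained a call without WT replicate 1 (adjusted p = 0.0118), with the upper quartile (0.04), with library size alone (0.0256) and with the 5 CPM filter (0.0485).

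The 4 genes of RNA decay and processing held 1 call. Skiv2l (ENSMUSG00000040356, 34839228 to 34850210) encodes the helicase of the SKI complex, which feeds RNA into the cytoplasmic exosome. It had 69.9, 76.9, 72.7 and 78.5 CPM in G9a_KO libraries, against 94.5, 82.0, 92.2 and 89.9 CPM in WT libraries. Every G9a_KO library was below every WT library, and Skiv2l fell by 0.27 ± 0.06 on the log2 scale (adjusted p = 0.00174). Nelfe starts 180 bases from it, head to head, and did not pass the test; the difference between the neighbors was not tested. Dxo, which removes faulty RNA caps, had 19.9 ± 1.39 CPM in G9a_KO libraries and 22.5 ± 2.16 CPM in WT libraries (adjusted p = 0.0998, or 0.0375 without WT replicate 2). Lsm2, a subunit of the LSM rings of U6 RNA and of decapping, had 94.3 ± 3.79 CPM in G9a_KO libraries and 98.2 ± 4.77 CPM in WT libraries. Prrc2a, an RNA-binding protein gene and the highest in CPM of the class III genes, had 1207 ± 99.5 CPM in G9a_KO libraries and 1192 ± 115 CPM in WT libraries (0.02 ± 0.07).

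Of the 5 genes of protein synthesis and quality, Vars and Hspa1l fell and none rose. Vars, which encodes the enzyme that charges tRNA with valine, had 657, 678, 662 and 694 CPM in G9a_KO libraries, against 926, 838, 812 and 877 CPM in WT libraries. The groups were far apart beside their spread, and Vars fell by 0.36 ± 0.05 (adjusted p = 2.23e-05). Per kilobase of exon it stood at 120 CPM in G9a_KO libraries and 154 CPM in WT libraries, among the higher levels of the region.

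Hspa1l (ENSMUSG00000007033, 34972703 to 34979285) encodes an HSP70 chaperone best known from the testis, and lies head to head with Hspa1a, 546 bases apart. It had 6.51, 5.17, 5.20 and 8.34 CPM in G9a_KO libraries, against 8.91, 9.22, 12.1 and 9.62 CPM in WT libraries. The groups did not overlap, although the highest G9a_KO library came close to the lowest WT library, and Hspa1l fell by 0.66 ± 0.16 (adjusted p = 0.00335). Gm10501 overlaps 1778 exon bases of Hspa1l on the other strand, and since the use of strand in counting is not given in the sources used here, reads of the pair cannot be told apart. Gm10501 itself had 3.38 ± 1.05 CPM in G9a_KO libraries and 2.72 ± 0.186 CPM in WT libraries (adjusted p = 0.231).

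The promoters of this pair are shown because both genes were lower and face each other. Each window is the 250 bases before the RefSeq start in GRCm38.p6, 5′ to 3′ on the gene's strand, with matches to GAANNTTC or TTCNNGAA (both from the heat shock element), the core of the interferon-stimulated response element, TGATGCAA or CCAAT on either strand in capitals. Hspa1l is at chr17:34972453-34972702 on the plus strand and Hspa1a at chr17:34972157-34972406 on the minus strand.
Hspa1l: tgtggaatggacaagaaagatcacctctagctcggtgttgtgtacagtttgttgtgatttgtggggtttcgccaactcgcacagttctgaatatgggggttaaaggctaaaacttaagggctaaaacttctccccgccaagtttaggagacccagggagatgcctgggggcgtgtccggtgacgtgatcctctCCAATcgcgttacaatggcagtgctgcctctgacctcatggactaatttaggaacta
Hspa1a: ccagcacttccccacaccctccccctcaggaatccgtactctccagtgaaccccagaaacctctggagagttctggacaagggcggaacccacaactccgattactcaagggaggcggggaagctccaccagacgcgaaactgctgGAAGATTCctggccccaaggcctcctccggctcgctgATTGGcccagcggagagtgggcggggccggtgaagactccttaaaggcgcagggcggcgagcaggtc
The Hspa1a window held 1 match to GAANNTTC and 1 to CCAAT, which reads ATTGG on its strand, and the Hspa1l window 1 match to CCAAT. No match overlapped another, and 40 of the 78 genes had an entry in the promoter table. Over 32851 RefSeq windows of that length, 6.69% held GAANNTTC, 7.17% TTCNNGAA, 2.98% the interferon element core, 0.791% TGATGCAA and 33.8% CCAAT.

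The other genes of this role did not pass the test. Bag6, a chaperone of proteins with exposed hydrophobic stretches, had 517 ± 32.7 CPM in G9a_KO libraries and 555 ± 59.1 CPM in WT libraries (-0.10 ± 0.07). Rnf5, a ubiquitin ligase of the endoplasmic reticulum membrane, had 48.1 ± 5.82 CPM in G9a_KO libraries and 42.1 ± 3.18 CPM in WT libraries (adjusted p = 0.0741, or 0.0315 without G9a_KO replicate 3 and 0.0432 without WT replicate 1). It also passed with DESeq2, with both of the other scalings named above and with the 5 CPM filter (adjusted p between 0.0179 and 0.0451). Fkbpl, related to the FK506-binding proteins, had 6.25 ± 0.926 CPM in G9a_KO libraries and 6.86 ± 0.339 CPM in WT libraries.

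Lipid, lysosome and metabolism genes had 2 rises and no fall among 6 tested of 8 (33.3% called, against 47.2% of all genes tested). Neu1 (ENSMUSG00000007038, 34931253 to 34935953) encodes the lysosomal sialidase. It had 15.9, 17.3, 19.3 and 15.8 CPM in G9a_KO libraries, against 14.2, 13.7, 15.2 and 14.4 CPM in WT libraries. The ranges did not overlap but were close, and Neu1 rose by 0.25 ± 0.08 (adjusted p = 0.0221). The call was lost without G9a_KO replicate 3 (adjusted p = 0.0686) or WT replicate 2 (0.0558). Agpat1, which makes phosphatidic acid from lysophosphatidic acid, rose by 0.15 ± 0.05 (adjusted p = 0.0123), with 143, 140.0, 144 and 149 CPM in G9a_KO libraries and 134, 125, 125 and 133 CPM in WT libraries. Its groups did not overlap and its change was the smallest of the 12 called.

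Ddah2, of the family that breaks down methylated arginine, had 24.4 ± 3.99 CPM in G9a_KO libraries and 20.3 ± 2.23 CPM in WT libraries. Its log2 fold change of 0.27 ± 0.11 did not pass (adjusted p = 0.0636), but did so in 7 of 16 alternatives: without G9a_KO replicate 2 (0.0214) or WT replicate 1 (0.0239), with the replicate block (0.0328), DESeq2 (0.0346), the upper quartile (0.0284), library size alone (0.0209) and the 5 CPM filter (0.0284). Ppt2, a lysosomal thioesterase, had 43.9, 40.7, 43.9 and 46.5 CPM in G9a_KO libraries, against 48.9, 47.0, 47.1 and 47.8 CPM in WT libraries. The groups did not overlap, yet the test did not call it (-0.13 ± 0.05, adjusted p = 0.0695, or 0.0397 without G9a_KO replicate 4). Abhd16a, a phospholipid lipase, had 29.2 ± 2.13 CPM in G9a_KO libraries and 31.1 ± 4.47 CPM in WT libraries. Apom, an apolipoprotein that the liver makes, was almost absent, at 0.263 ± 0.11 CPM in G9a_KO libraries and 0.23 ± 0.185 CPM in WT libraries. Cyp21a1, the adrenal steroid 21-hydroxylase, had 2 counts in G9a_KO replicate 3, 4 in WT replicate 1 and 0 in every other library.

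The 2 largest called changes among these genes were signaling genes that lie next to each other on the same strand, with 1302 bases between the 3′ end of Notch4 and the start of Gpsm3, and they went opposite ways. Gpsm3 (ENSMUSG00000034786, 34589806 to 34591754) encodes a regulator of G protein alpha subunits best known from leukocytes. It had 18.8, 19.3, 20.9 and 19.5 CPM in G9a_KO libraries, against 11.5, 7.88, 9.84 and 10.5 CPM in WT libraries. The groups were well apart and Gpsm3 rose by 0.98 ± 0.10 (adjusted p = 4.5e-06), with an estimate between 0.89 and 1.06 when any 1 library was left out. Gpsm3 shares 227 exon bases with Pbx2 on the same strand, so some reads could have been given to either, and Pbx2 itself was lower.

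Notch4 (ENSMUSG00000015468, 34564268 to 34588503) encodes a Notch receptor best known from the endothelium. It had 3.26, 2.80, 2.89 and 2.99 CPM in G9a_KO libraries, against 5.84, 4.90, 4.39 and 6.35 CPM in WT libraries. Every G9a_KO library was below every WT library, and Notch4 fell by 0.85 ± 0.14 (adjusted p = 0.000264). Its level was low: per kilobase of exon it had 0.37 CPM in G9a_KO libraries and 0.666 CPM in WT libraries. The endothelial markers summed to 4.78 to 5.98 CPM in G9a_KO libraries and 2.54 to 3.57 CPM in WT libraries. Most of that was Cdh5, at 4.32 ± 0.46 CPM in G9a_KO libraries and 2.28 ± 0.314 CPM in WT libraries. Of the 3 tested, Cdh5 was higher in the knockout and Pecam1 and Kdr, both under 1 CPM, did not pass. Tek and Stab2 were too low to test. Whether endothelial traits bear on the fall of Notch4 was not tested. In bulk libraries, fewer cells that express a gene and less of its RNA per cell cannot be told apart.

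The windows before the starts of these neighbors are shown because the genes moved in opposite directions. They are chr17:34589556-34589805 for Gpsm3 and chr17:34564045-34564294 for Notch4, both on the plus strand, from RefSeq on GRCm38.p6, and neither held any of the 5 motifs, so no base is in capitals.
Gpsm3: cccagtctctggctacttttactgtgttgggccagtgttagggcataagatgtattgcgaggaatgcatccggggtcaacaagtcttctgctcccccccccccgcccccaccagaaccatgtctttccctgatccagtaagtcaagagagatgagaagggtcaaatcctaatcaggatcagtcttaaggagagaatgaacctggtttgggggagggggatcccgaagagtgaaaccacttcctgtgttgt
Notch4: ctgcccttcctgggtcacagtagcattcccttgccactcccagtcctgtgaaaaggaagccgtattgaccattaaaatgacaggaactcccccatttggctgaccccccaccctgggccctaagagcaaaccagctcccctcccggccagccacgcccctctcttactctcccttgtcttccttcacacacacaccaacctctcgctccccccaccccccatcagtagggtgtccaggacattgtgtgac

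The remaining signaling genes did not pass the test. Clic1, a chloride channel protein, was the highest class III gene per kilobase of exon, at 190 CPM in G9a_KO libraries and 178 CPM in WT libraries. In CPM it had 342 ± 14.1 in G9a_KO libraries and 320 ± 10.8 in WT libraries (0.10 ± 0.04, adjusted p = 0.088, or 0.0315 without G9a_KO replicate 2 and 0.0374 without WT replicate 1). Clic1 also passed with DESeq2 (0.0491), the upper quartile (0.0117), library size alone (0.00479) and the 5 CPM filter (0.0165). Csnk2b, the regulatory subunit of the kinase CK2, had 140 ± 5.27 CPM in G9a_KO libraries and 147 ± 1.70 CPM in WT libraries (adjusted p = 0.169). Ager, the receptor for advanced glycation end products, had 0.913 ± 0.281 CPM in G9a_KO libraries and 1.02 ± 0.341 CPM in WT libraries.

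Genes of leukocytes and of the Ly6 family were mostly silent in these cells. Of 12, only Ly6g5b passed the filter. It had 2.63, 3.38, 2.71 and 2.38 CPM in G9a_KO libraries, against 1.93, 1.32, 1.80 and 1.40 CPM in WT libraries. The groups did not overlap, and Ly6g5b rose by 0.79 ± 0.19 (adjusted p = 0.00402). It lies 767 bases beyond the 3′ end of Csnk2b on the same strand, and Csnk2b did not pass the test. Btnl4, Btnl6, Ly6g6d, Ly6g6e, Ly6g6f, Lst1 and Ltb, the gene of lymphotoxin beta, had 0 counts in all 8 libraries. Aif1, a macrophage gene, had 8 counts in G9a_KO replicate 1 and 0 in every other library. In WT replicate 1, Ly6g5c had 8 counts and the platelet receptor gene Mpig6b 4, and both had 0 in every other library. Ly6g6c had 4 counts in G9a_KO replicate 2, 6 in WT replicate 1, 5 in WT replicate 2 and 0 elsewhere. Such numbers are too small for a fold.

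The matrix genes Tnxb and Egfl8 did not pass the test. Tnxb, which encodes tenascin X, had 24.1 ± 1.92 CPM in G9a_KO libraries and 22.1 ± 2.66 CPM in WT libraries (adjusted p = 0.273, or 0.0403 without WT replicate 1). Egfl8, with EGF-like domains, was under 1 CPM in both groups on average. Of the 7 other protein-coding genes 3 were tested. D17H6S53E had 17.8, 17.4, 16.2 and 16.8 CPM in G9a_KO libraries, against 23.4, 18.4, 18 and 20.8 CPM in WT libraries. The groups did not overlap, and it fell by 0.24 ± 0.09 (adjusted p = 0.035). Leaving out G9a_KO replicate 2, 3 or 4 or WT replicate 1 or 4 ended that call (adjusted p between 0.0613 and 0.0979), as did the upper quartile (0.103), library size alone (0.157) and filters at 1 read (0.0712) or 5 CPM (0.065). Gpank1 had 23.1 ± 1.44 CPM in G9a_KO libraries and 23.7 ± 2.01 CPM in WT libraries, and Vwa7 had 0.736 ± 0.191 CPM in G9a_KO libraries and 0.409 ± 0.161 CPM in WT libraries (adjusted p = 0.083, or 0.0473 without WT replicate 3). Prrt1 had no count, and Gm20547, Gm20481 and Sapcd1 stayed below the filter.

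Among noncoding genes only 1110038B12Rik (ENSMUSG00000092203, 34950238 to 34952471) was well expressed. It is a long noncoding RNA gene whose exons contain the annotated small nucleolar RNA gene Snord52. It had 114, 110.0, 133 and 118 CPM in G9a_KO libraries, against 145, 128, 133 and 151 CPM in WT libraries. Although the highest G9a_KO library reached the second lowest WT library, the gene fell by 0.23 ± 0.07 (adjusted p = 0.012). Without WT replicate 4 the adjusted p was 0.0504, with scaling by library size 0.0794, and by the upper quartile 0.0522. Gm20522, Gm17705 and Gm20460 were tested at means under 1 CPM, and none passed. Gm20460 had 0.169, 0.318, 0.219 and 0.392 CPM in G9a_KO libraries, against 0.27 CPM in WT replicate 4 and 0 in the other WT libraries, and without that replicate it passed (adjusted p = 0.00106), as it did with limma-voom (0.0043) and the replicate block (0.0379). All of its 1572 exon bases are shared on the same strand with Ppt2 (957) and Egfl8 (615), so its reads could belong to either. Of the 10 small RNA genes 1 was tested and of the 12 pseudogenes 2 were tested (Gm23442, Tnxa and Btnl7-ps), all under 1 CPM and none called. Across all 38 genes that were not tested, 16 had no count at all and 22 had some, with at most 54 counts over all libraries and a group mean of at most 0.133 CPM.

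The class III genes with at least 5 CPM shared a library pattern. WT replicate 1 was the highest WT library for 19 of the 26, against 34.6% of all genes at that level. WT replicate 2 was the lowest for 13, a count with no share of all genes to set beside it. In the knockout, replicate 4 was highest for 13 and replicate 3 for 10, against 25.5% and 23.9% of all genes at that level. The summed level of all class III genes was 3844, 4087, 3878 and 4132 CPM in G9a_KO libraries, against 4584, 4012, 3952 and 4213 CPM in WT libraries. The ranges overlapped. The top 4 genes held 69.3% of this sum.

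Within genes, the shares of most transcripts overlapped between the groups. In 15 of the 26 genes 1 transcript held over 80% of the counts. Of 49 transcripts with at least 10% of their gene's counts in either group, the share did not overlap between groups for 5 (10.2%), against 6.83% of 13226 such transcripts overall. For Nelfe, transcript Nelfe-204 held 36.1%, 36.1%, 31.7% and 33.6% of the counts in G9a_KO libraries, against 37.4%, 56.6%, 48.1% and 45.1% in WT libraries, although the gene's total did not pass the test. For Ddah2, transcript Ddah2-201 held 94.7 ± 2.72% in G9a_KO libraries and 85.3 ± 5.57% in WT libraries, and Ddah2-204 held 4.24 ± 2.71% in G9a_KO libraries and 14.0 ± 6.09% in WT libraries. Stk19-202 held 6.83 ± 1.39% in G9a_KO libraries and 12.8 ± 1.79% in WT libraries. The share of 1110038B12Rik-205, a transcript annotated with a retained intron, was 21.3 ± 0.927% in G9a_KO libraries and 18.3 ± 1.54% in WT libraries. These shares rest on how the authors' counting split reads among overlapping transcripts and carry no p.

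The stretches on either side hold class II and class I genes and had wider ranges than the class III set. Of all genes with at least 5 CPM, 58.3% were called. In the windows of equal width before and after the region, 54.5% and 50.0% of genes at that level were called. Before it 4 of 22 rose and 8 fell, and after it 7 of 22 rose and 4 fell. The highest log2 fold changes there were those of the antigen presentation genes Tap2 (3.05 ± 0.17) and H2-K1 (1.51 ± 0.06) before and H2-Q4 (3.83 ± 0.09) and H2-D1 (1.69 ± 0.05) after, where class I genes may share reads with near-identical copies. Within the class III set the highest was 0.98. The set leaves out named genes of its interval, while the windows leave out none. Of the genes left out, Hspa1b fell by 3.79 ± 0.16 and Ehmt2 by 1.41 ± 0.05, both over 5 CPM on average. C4b, under 1 CPM in both groups, rose by 3.35 ± 0.63. The medians were close: -0.05 for the class III genes, -0.00 before, 0.01 after and -0.05 over the 495 other genes of chromosome 17, of which 51.3% were called. The median sizes were 0.14 for the class III genes, 0.18 before, 0.24 after and 0.19 for the rest of the chromosome. These are descriptions, with no test between windows.

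**Figure D3:**
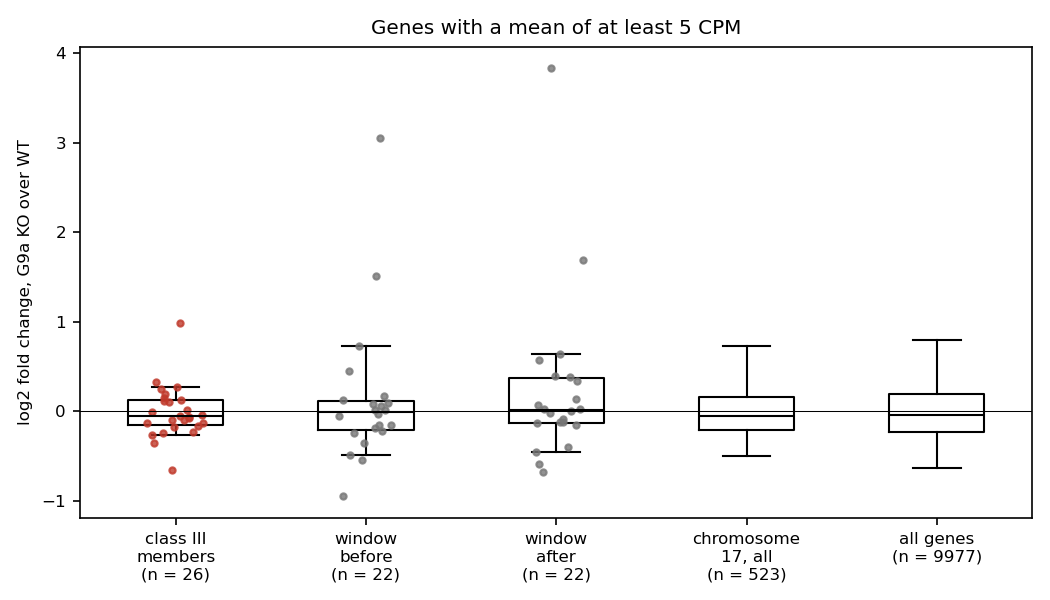
Log2 fold changes (G9a_KO over WT) of genes averaging 5 CPM or more in the class III set, the windows of equal width before and after it, all of chromosome 17 and all genes. Boxes span the quartiles with the median as a line, whiskers run to the 5th and 95th percentiles, and points are single genes of the first 3 groups. The class III points lie between -0.66 and 0.98, and the flanking windows reach 3.05 and 3.83. Genes left out of the set, such as Ehmt2 and Hspa1b, are not among the class III points.

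Many class III proteins work in complexes or families whose other genes lie elsewhere. Of 68 such partner genes, 67 were tested, 7 rose and 36 fell, with a median log2 fold change of -0.20. Their falls were 53.7% of those tested, against 23.6% of all genes, and 58.1% against 32.9% at or above 5 CPM. The count of rises grew to 13 with scaling by library size alone and to 11 by the upper quartile, with 30 and 31 falls.

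The aminoacyl-tRNA synthetases of the cytosol, which load amino acids onto tRNAs, made up 17 of the 36 falls. Besides Vars, 17 of the 19 others fell and none rose, by 0.16 to 0.42, and only Dars and Tars did not pass. Sars (serine) fell by 0.42 ± 0.05, to 244 ± 9.91 CPM in G9a_KO libraries against 328 ± 11.5 CPM in WT libraries (adjusted p = 4.73e-06). Farsb (phenylalanine) fell by 0.41 ± 0.05 and Iars (isoleucine) by 0.37 ± 0.05. No synthetase of the list is on chromosome 2 or 17 apart from Vars. Without the synthetases, 7 of 48 partners rose (14.6%) and 19 fell (39.6%), with a median of -0.06. Of all genes tested, 23.6% rose and 23.6% fell. Most partners are well expressed, 62 of the 67 tested having at least 5 CPM. Of all genes at that level 25.3% rose and 32.9% fell, with a median of -0.05.

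In the SKI complex all 3 genes fell, Ttc37 by 0.29 ± 0.08 and Wdr61 by 0.34 ± 0.06 beside Skiv2l. The catalytic subunits of CK2 fell, Csnk2a1 by 0.64 ± 0.05 and Csnk2a2 by 0.25 ± 0.06, while the class III subunit Csnk2b did not pass. Neu1 forms a lysosomal complex with cathepsin A and beta-galactosidase. Ctsa, the cathepsin gene, fell by 0.84 ± 0.06, to 99.8 ± 3.49 CPM in G9a_KO libraries against 179 ± 14.8 CPM in WT libraries (adjusted p = 1.09e-07), where Neu1 rose, and Glb1 did not pass (0.12 ± 0.05).

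Under TMM scaling, of the NELF genes only Nelfcd fell (0.55 ± 0.05 lower on the log2 scale), and Nelfa and Nelfb, like Nelfe, did not pass. Of the 7 LSM partners of Lsm2 only Lsm3 fell. Xbp1, a transcription factor of the unfolded protein response beside Atf6b, fell by 0.68 ± 0.04, to 102 ± 2.83 CPM in G9a_KO libraries against 164 ± 2.87 CPM in WT libraries (adjusted p = 3.68e-08), while Atf6, Ern1 and Eif2ak3 did not pass and the protease gene Mbtps1 rose by 0.26 ± 0.04. Get4, a partner of Bag6, rose by 0.35 ± 0.05, and Ubl4a and Asna1 of the same pathway fell. Of the homeodomain genes listed with Pbx2, which include other PBX genes, Pbx4 and Meis1 rose, Meis1 by 0.38 ± 0.10. Pbx3, Meis2 and Pknox1 fell, Meis2 by 0.60 ± 0.08. Among lysophosphatidate acyltransferases Agpat2 and Agpat3 rose as Agpat1 did, and Agpat5 fell by 0.41 ± 0.05. Xrn2, a nuclear exonuclease related in function to Dxo, fell by 0.68 ± 0.05, while Xrn1 of the same list did not pass (0.05 ± 0.08). Ddah1 fell by 0.46 ± 0.06 where Ddah2 did not pass.

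Many genes of chromosome 2 fell in the knockout. Of its 1279 tested genes 664 (51.9%) fell and 140 (10.9%) rose, with a median of -0.35. Over all genes tested 23.6% fell and 23.6% rose, and over those with at least 5 CPM 32.9% and 25.3%. On chromosome 2 lie 5 of the 12 called partners with the lowest p (Ctsa, Csnk2a1, Xrn2, Nelfcd and Meis2). Of the 11 partners there 7 (63.6%) fell and 1 (9.09%) rose, with a median of -0.41. Among the 56 tested partners on other chromosomes 29 (51.8%) fell and 6 (10.7%) rose, with a median of -0.19. The part of the chromosome in the values of single partners was not tested. Each partner named here as risen or fallen changed by more than the 0.08 by which scaling moved the median of all genes. That does not show that each call holds under other scalings. Of the 36 falls, 30 held with library size alone and 31 with the upper quartile.

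**Figure D4:**
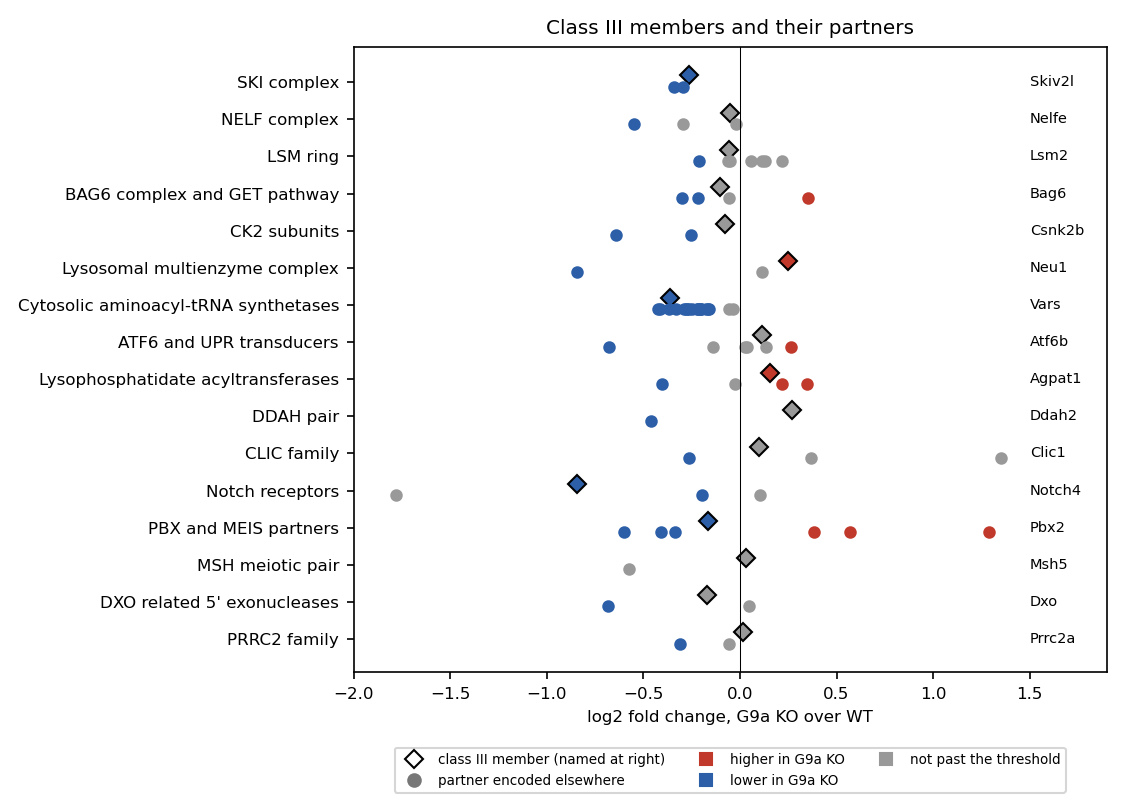
Log2 fold change (G9a_KO over WT) of class III genes (diamonds, named at the right) and of the tested partner genes encoded elsewhere (circles), by complex or family. Red rose, blue fell and grey did not pass an adjusted p of 0.05 (edgeR). Under TMM scaling all synthetase partners lie below 0, and 17 of 19 are called, while the partners of Lsm2 and Atf6b lie on both sides.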

How the data were processed

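The authors deposited 1 table of whole-number estimated counts (expected counts) per transcript, not normalized, for all 8 libraries. FastQC, Trimmomatic, HISAT2 and GRCm38.p6 are listed in the submitters' processing notes; no source used here names the counter, its strand setting or the annotation. Of 115220 transcripts 114332 (99.23%) matched GENCODE M21 and were summed to 47434 genes; the others held 0.148% to 0.17% of a library's counts. Reads of overlapping, antisense or near-identical genes may be shared.

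G9a_KO was compared with WT by edgeR 4.0.16 (R 4.3.3; filterByExpr, TMM, quasi-likelihood F test, two-sided, Benjamini-Hochberg over 15840 genes, threshold 0.05). SE was derived from the log2 fold change and F. The code was tested on simulated data with 200 changed genes, far fewer than were called in the real data. There 8.04% of the calls of edgeR and 18.1% of those of DESeq2 were of unchanged genes, above the 0.05 aimed at. Calls close to the threshold carry this limit. Limits from a count of 0 (3 counts) cover counting error only. Members, partner and marker lists were chosen with earlier results of these data known. Values per library were given for the 6 tested genes nearest to Ehmt2 and for called genes with a change of at least 0.5 and 5 CPM in the higher group, and for some others after their values were seen. Of the partners, the 12 called with the lowest p were to be named, of which 1 is not reported here, and others after their values were seen. Alternatives were DESeq2 1.42.0, limma-voom (3.58.1), 3 scalings, 2 filters, a replicate block, a test against 1.2-fold and each library left out.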

Additional observations from a re-analysis of the deposited data

Results flagged for a closer look

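Of 86 groups of 4 libraries examined, 1 had a library apart from the rest by Dixon's criterion. Csnk2a1, the gene of a catalytic subunit of CK2 and a partner of Csnk2b, had 154 to 162 CPM in the G9a_KO libraries, against 225 CPM in WT replicate 1 and 252 to 254 CPM in the other WT libraries. The library apart was WT replicate 1, which still lay above every G9a_KO library. Chance alone sets apart about 1 in 20 groups.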

How the results depend on the processing

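Against 5 class III genes higher and 7 lower in the knockout, DESeq2 gave 8 higher, scaling by the upper quartile or by library size alone 9 higher and 4 lower, a minimum mean of 5 CPM 8 higher and 4 lower, and the test against 1.2-fold 2 higher and 3 lower. Leaving out 1 library gave 3 to 10 higher and 4 to 8 lower. For partner genes (7 higher, 36 lower), the upper quartile gave 11 higher, library size alone 13 higher, and the test against 1.2-fold 3 higher and 11 lower; leaving out 1 library gave 6 to 8 higher and 32 to 36 lower. The direction of these uncalled genes turned: Zbtb12 to 0.002 with DESeq2, 0.003 with RLE size factors, 0.054 with the upper quartile, 0.076 with library size, 0.000 with all genes of at least 1 read and 0.036 with the 5 CPM minimum; Nelfe to 0.008 and 0.029, Gpank1 to 0.017 and 0.038 and Gm17705 to 0.004 and 0.032 with the upper quartile and library size; Lsm2 to 0.021 and Csnk2b to 0.003 with library size. Leaving out 1 library in turn gave a log2 fold change of -0.052 to 0.044 for Zbtb12, -0.082 to 0.011 for Gpank1, -0.028 to 0.082 for Prrc2a, -0.034 to 0.099 for Msh5, -0.149 to 0.003 for Abhd16a, -0.144 to 0.347 for Tnxa, -0.084 to 0.875 for Apom, -0.301 to 0.08 for Ager, -0.205 to 0.359 for Gm23442 and -0.943 to 0.409 for Gm17705. The causes were not tested. The labels do not say whether replicate numbers pair the samples. Correlations of same-numbered deviations were -0.284, 0.078, 0.384 and 0.13, and those of differently numbered libraries lay between -0.352 and 0.306. So few correlations cannot settle whether the numbers pair libraries. The fit with the replicate block gave 7 higher and 7 lower class III genes and 7 higher and 37 lower partners. Among weak genes the SE reached 1.03 for Gm20460, against a median of 0.07 over the 26 genes with at least 5 CPM.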
